A study of Mus musculus with 12 samples.

Results

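Fat is stored in cells as triglyceride and burned in mitochondria by fatty acid oxidation, and the genes of these opposed pathways were followed here in mouse 3T3 fibroblasts that carry an inducible IER2. A list of 43 genes was used, 21 of fat storage and fat cell identity and 22 of fatty acid oxidation, and a gene counted where the deposited table held a probe set with its symbol. This was the case for 40 of the 43, 18 of storage and 22 of oxidation, among 16475 probe sets tested. Agpat2, Plin1 and Cfd had no probe set of that symbol and were not analysed here.

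RNA was profiled on 12 Affymetrix Mm430_2.0 arrays in 4 groups of 3, labelled as biological replicates. 3T3-ind-IER2 #11 cells are 1 clone of NIH 3T3 (Klon11 in the labels), a mouse embryonic fibroblast line, that holds mouse IER2, an immediate-early gene, under the RheoSwitch system, and they were compared with parental NIH 3T3 cells. Each cell line was given 200 nM of RSL, the ligand that turns the switch on, or an equal volume of its solvent DMSO, and was harvested after 24 h. The growth protocol, which is the same text for all 12 arrays, lists G418 and hygromycin in the medium. Since the inducible cells are a single clone, effects of the construct and of clone selection cannot be told apart in a comparison with the parental cells.

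In storage, fatty acids freed from circulating fat by lipoprotein lipase (Lpl) enter the cell, are carried by fatty acid binding proteins, joined to glycerol by acyltransferases such as Dgat1 and Dgat2, and kept in droplets coated by perilipins until lipases release them. In oxidation, the carnitine shuttle of Cpt1, Slc25a20 and Cpt2 brings long fatty acids into mitochondria, where a cycle of dehydrogenases, hydratases and thiolases shortens them and the electron transfer flavoprotein passes their electrons to the respiratory chain. Pparg with the C/EBP factors drives fat cell differentiation, and Ppara is best known as an activator of oxidation genes in liver; 3T3 lines are a classic cell system for the former, although NIH 3T3 cells are less prone to it than the 3T3-L1 line.

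Promoter sequences, given here for members that passed a test below, run over the 250 bases before the start of a transcript, 5′ to 3′ on the strand of the gene, from RefSeq (GRCm38.p6). Lipe was called under RSL and has entries for 2 starts, at chr7:25395988-25396237 and chr7:25390113-25390362 on the minus strand. Eci1 (chr17:24426433-24426682, plus strand) and Cebpb (chr2:167688665-167688914, plus strand) had the largest decrease and the largest increase among the members between the cell lines. Cpt1c (chr7:44974852-44975101, minus strand), also called between the cell lines, holds the letters AGGTCA, the core that nuclear receptors such as the PPARs bind as a pair of repeats, and these are in capitals.
Lipe promoter, upstream start: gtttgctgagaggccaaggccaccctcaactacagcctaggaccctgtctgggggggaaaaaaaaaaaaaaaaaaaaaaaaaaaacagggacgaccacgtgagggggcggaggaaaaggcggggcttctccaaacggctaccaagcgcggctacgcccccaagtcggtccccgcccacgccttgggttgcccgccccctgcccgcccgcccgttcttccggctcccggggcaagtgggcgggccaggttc
Lipe promoter, downstream start: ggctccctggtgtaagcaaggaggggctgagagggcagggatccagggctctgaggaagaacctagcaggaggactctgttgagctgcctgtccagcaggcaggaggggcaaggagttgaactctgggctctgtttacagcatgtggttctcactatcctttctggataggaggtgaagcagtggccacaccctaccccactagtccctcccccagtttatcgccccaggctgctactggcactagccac
Eci1 promoter: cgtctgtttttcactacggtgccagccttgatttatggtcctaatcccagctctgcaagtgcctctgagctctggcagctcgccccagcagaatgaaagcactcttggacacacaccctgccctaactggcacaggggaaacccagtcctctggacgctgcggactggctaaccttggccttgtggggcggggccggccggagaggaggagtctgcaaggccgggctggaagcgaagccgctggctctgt
Cebpb promoter: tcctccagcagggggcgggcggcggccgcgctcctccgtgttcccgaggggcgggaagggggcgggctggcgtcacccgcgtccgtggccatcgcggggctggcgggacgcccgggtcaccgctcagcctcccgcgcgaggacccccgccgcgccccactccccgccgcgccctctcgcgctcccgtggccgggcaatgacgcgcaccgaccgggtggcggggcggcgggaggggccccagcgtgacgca
Cpt1c promoter: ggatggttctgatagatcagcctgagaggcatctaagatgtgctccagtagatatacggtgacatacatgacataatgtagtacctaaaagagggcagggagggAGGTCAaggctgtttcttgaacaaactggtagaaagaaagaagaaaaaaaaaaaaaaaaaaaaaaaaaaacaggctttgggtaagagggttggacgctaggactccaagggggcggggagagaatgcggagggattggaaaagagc
The AGGTCA of Cpt1c starts 146 bases before the gene start. The other 4 sequences hold none of the motifs searched. In the RefSeq table, 32 of the 40 members had a promoter, 36 promoters in all of 32851, and Fabp4, Lpl and Angptl4 had none. AGGTCA on either strand was present in 8 of the 36 and in 14% of all promoters of this length. A direct repeat of AGGTCA with 1 base between, which contains the single motif, was in 0 of the 36 and in 0.0335% of all. The C/EBP-type motif TTGCGNAA, which overlaps neither, was present on either strand in 1 of the 36 (Lep) and in 0.67% of all, and the looser TTGCNNAA, which contains it, in 4 of the 36 (Acads, Cidec, Lep and Pparg) and in 9.56% of all. TATAAA on the strand of the gene was present in 1 of the 36 (Cebpa) and in 7.59% of all. A match says only that these letters are present.

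Values are log2 expression as deposited. Pairs of arrays had a correlation over all probe sets of 0.9981 to 0.9992 within a group, 0.9978 to 0.9988 between treatments of a cell line, and 0.9913 to 0.9932 between cell lines. The targeted gene, Ier2, had a level of 9.02 ± 0.06 (SD, n = 3) in the inducible DMSO arrays and a lower one, 8.55 ± 0.10 (SD, n = 3), in those labelled RSL (log2 fold change -0.47, adjusted p = 4.64e-05 from limma). In parental cells it was at 8.58 ± 0.05 (SD, n = 3) under DMSO and 8.75 ± 0.07 (SD, n = 3) under RSL (adjusted p = 0.366), so that inducible cells were higher by 0.45 under DMSO (adjusted p = 3.24e-06), and the effects of RSL differed by -0.64, inducible minus parental (adjusted p = 0.000262). Whether its probes read the transcript of the construct is not given, so this does not settle the labels, and the groups are named as the labels have them. As a guide to silent genes, 37 olfactory receptor probe sets had a median of 6.05 to 6.14 and a 95th percentile of 6.47 to 6.63 across the arrays. Of 8 fibroblast markers, 7 lay above that percentile on all 12 arrays, with Lum on none. Of 6 measured fat cell markers, Retn alone did so on all 12, Fabp4 on 6 arrays, and Adipoq, Cidec, Pparg and Lep on none. The markers that never passed were 5 of 8 for macrophages (Adgre1, Ptprc, Itgam, Lyz2 and Mrc1), 6 of 7 for endothelium, 5 of 6 for hepatocytes and 5 of 5 for epithelium. The exceptions, Tie1 for endothelium and Serpina1a for hepatocytes, passed on 6 arrays each, the inducible ones. Under DMSO, Tie1 was at 6.76 in inducible and 6.03 in parental cells, and Serpina1a at 6.71 and 5.48. In whole-culture RNA, fewer cells of a type and less RNA per cell cannot be told apart.

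Of the 40 members, 32 lay above the olfactory receptor level on at least 1 array and 8 on none: Pparg, Ppara, Cd36, Cidec, Adipoq, Lep, Ehhadh and Pdk4. Cd36 (a fatty acid transporter), Adipoq (adiponectin), Ehhadh (the peroxisomal bifunctional enzyme) and Pdk4 (a kinase that shuts off pyruvate oxidation) lay below the first quartile of the probe sets on all 12 arrays. Probes differ in how strongly they bind, so one probe set's level says nothing of its abundance relative to another. The levels moved little across the groups: the largest log2 fold change of any member in the 4 comparisons below was 0.42 upwards and -0.50 downwards.

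**Figure D1:**
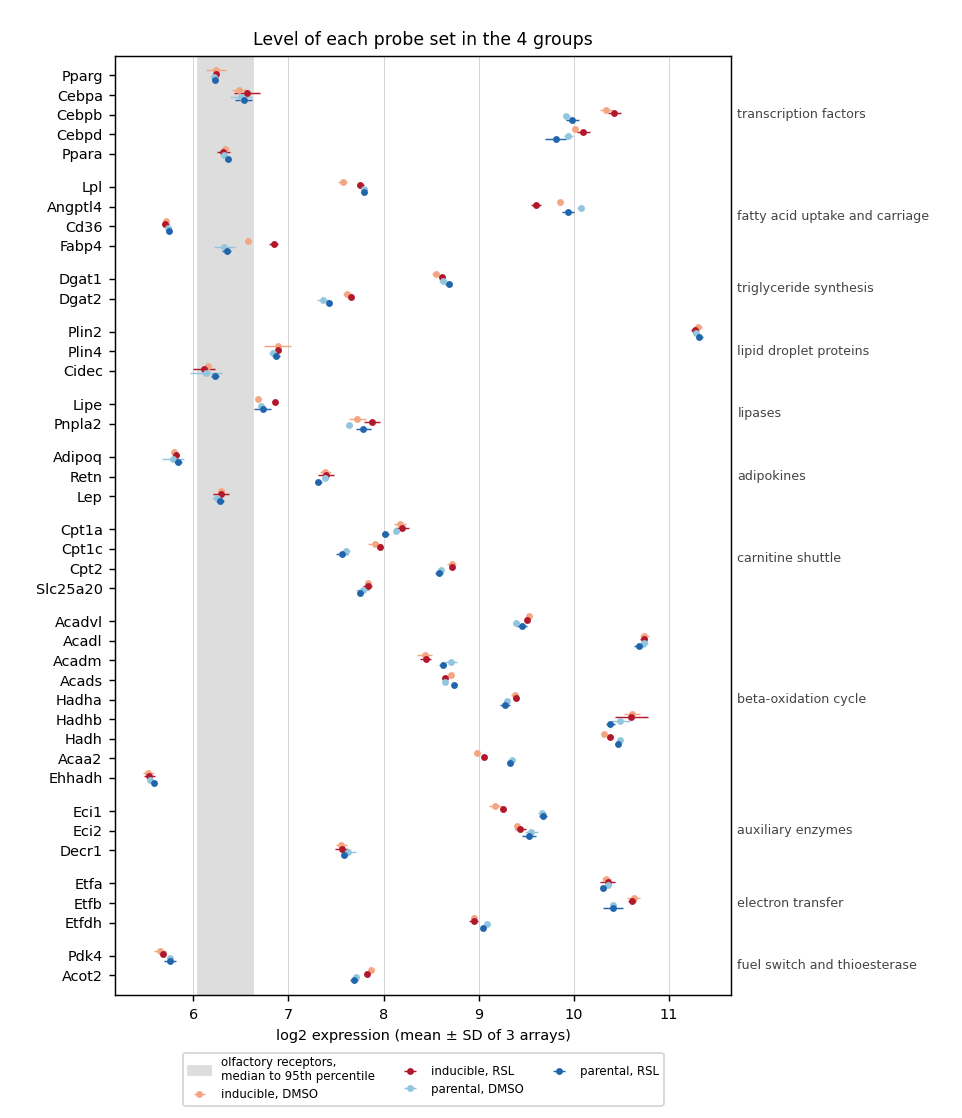
Log2 expression of the 40 members (x axis) by role, as the mean and SD of 3 arrays for each of the 4 groups, with the span from the lowest median to the highest 95th percentile of 37 olfactory receptor probe sets in grey. Cd36, Adipoq, Ehhadh and Pdk4 sit left of the grey span in every group, and levels of different genes are not comparable with each other.

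The first comparison asked which of these genes differed after 24 h of RSL in the inducible cells. In the arrays labelled RSL, Fabp4, Lpl and Lipe were higher, Angptl4 was lower and the other 36 members did not pass. All 4 called genes belong to the handling of fatty acids in storage; of the 22 oxidation genes 0 passed. Calls were made at an adjusted p under 0.05 in limma. Of the members, 7.5% passed upwards and 2.5% downwards, beside 1.32% and 1.21% of all probe sets. The result for oxidation, 0 of 22, is near these shares of all probe sets, and storage and oxidation were not compared by a test. Members were chosen with earlier results of these data known, so their shares, here and below, are no independent comparison with all probe sets. The median log2 fold change was 0.01 over the 40 members and 0.00 over all probe sets.

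Among genes of fatty acid uptake and carriage, Fabp4 encodes a fatty acid carrier of the cytosol, abundant in fat cells and also made by macrophages. Its log2 levels were 6.58, 6.57 and 6.57 under DMSO and 6.82, 6.90 and 6.81 under RSL in inducible cells, and 6.20, 6.40 and 6.38 under DMSO and 6.36, 6.30 and 6.39 under RSL in parental cells. Every inducible RSL array lay above every array of the other groups, and all 6 inducible arrays were above the olfactory receptor level while all 6 parental arrays were below it. The 3 inducible DMSO arrays passed that level only narrowly, as it stood at 6.52, 6.55 and 6.55 on them. The change under RSL is therefore also taken from near background. The log2 fold change in inducible cells was 0.27 (SE 0.05, 1.21-fold, adjusted p = 0.00436 from limma). Of 8 macrophage markers 1, Csf1r, was above that level on all 12 arrays, and Adgre1, Ptprc, Itgam, Lyz2 and Mrc1 were above it on none. Fcgr1 passed it on 3 arrays, and Cd68 on 6, the inducible ones, as Fabp4 did. Under RSL in inducible cells, 0 of the 8 were called in limma, with 1 higher and 1 lower at an unadjusted p under 0.05, and Cd68 had a log2 fold change of -0.00 (SE 0.05). Their summed log2 level was 9.45 to 9.48 under DMSO and 9.44 to 9.53 under RSL in inducible cells, and 9.43 to 9.46 and 9.46 to 9.51 in parental cells; the part of other cells in the Fabp4 result was not tested.

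Lpl, the lipoprotein lipase that frees fatty acids from circulating triglyceride, read 7.56, 7.53 and 7.62 under DMSO and 7.80, 7.73 and 7.74 under RSL in inducible cells. In parental cells it read 7.78, 7.83 and 7.77 under DMSO and 7.81, 7.80 and 7.76 under RSL. The 3 inducible DMSO arrays were the lowest of the 12, and the inducible RSL arrays overlapped with the parental ones. The log2 fold change was 0.18 (SE 0.03, 1.14-fold, adjusted p = 0.00776 from limma). The call was lost without DMSO replicate 2 (adjusted p = 0.0572) or without RSL replicate 1.

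Angptl4, a secreted inhibitor of lipoprotein lipase, moved the other way. Inducible cells had 9.84, 9.84 and 9.88 under DMSO and 9.66, 9.55 and 9.59 under RSL, with no overlap. Parental cells had 10.11, 10.05 and 10.05 under DMSO and 9.97, 9.87 and 9.97 under RSL, again without overlap. The log2 fold change was -0.25 in inducible cells (SE 0.04, 1.19-fold lower, adjusted p = 0.0014 from limma) and -0.13 in parental cells (SE 0.04, adjusted p = 0.366), where it was not called. Cd36, the remaining gene of this role, stayed between 5.66 and 5.76 on all 12 arrays.

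Of the lipases that empty the lipid droplet, Lipe (hormone-sensitive lipase) read 6.66, 6.68 and 6.71 under DMSO and 6.86, 6.87 and 6.85 under RSL in inducible cells. Parental cells had 6.74, 6.71 and 6.70 under DMSO and 6.80, 6.76 and 6.63 under RSL. The 3 inducible RSL arrays were the highest of the 12. All 12 values were above the olfactory receptor level but near it, at 6.63 to 6.87 beside a 95th percentile of 6.47 to 6.63. The log2 fold change was 0.18 (SE 0.04, 1.13-fold, adjusted p = 0.0221 from limma), a call that was lost without any of 5 of the 6 inducible arrays (adjusted p up to 0.104) and kept without DMSO replicate 3. Pnpla2, the lipase that takes the first fatty acid from triglyceride, had a log2 fold change of 0.15 (SE 0.05, adjusted p = 0.182 from limma) in inducible cells and 0.15 (SE 0.05, adjusted p = 0.394) in parental cells, and was called in neither.

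**Figure D2:**
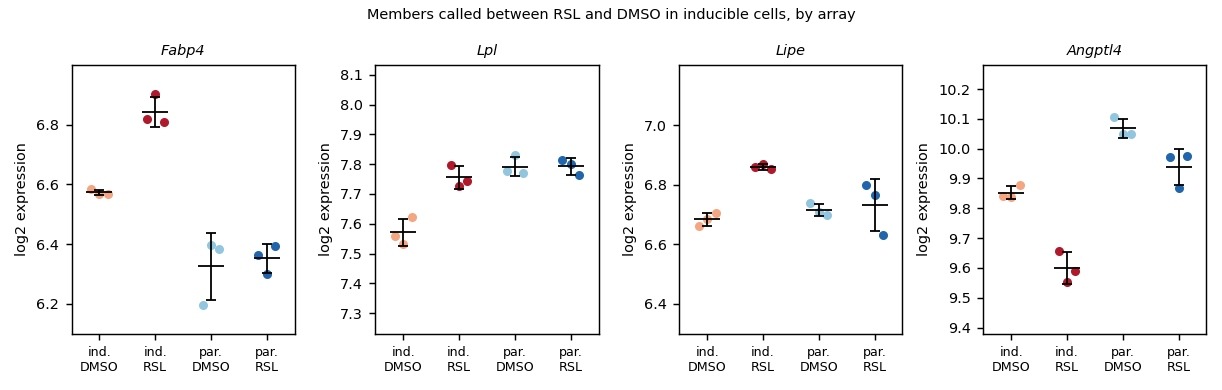
Log2 expression (y axis) of Fabp4, Lpl, Lipe and Angptl4 on the 12 arrays, 1 point each, where black bars give the mean and SD per group of 3, for inducible (ind.) and parental (par.) cells under DMSO or RSL. All y axes span the same range of log2 units, and in inducible cells the RSL arrays lie wholly above the DMSO arrays for Fabp4, Lpl and Lipe and wholly below for Angptl4.

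The remaining storage genes did not pass in inducible cells. Of the transcription factors of fat cell differentiation, Cebpb and Cebpd, which act early, each had a log2 fold change of 0.08 (SE 0.04 and 0.05). Pparg, the central regulator, was at -0.00 (95% confidence interval -0.09 to 0.09), and Cebpa at 0.08 (-0.07 to 0.22), both at or near the level of silent genes. The triglyceride-forming acyltransferases Dgat1 and Dgat2 were at 0.06 and 0.04. Among the droplet proteins Plin2, which coats droplets in most cell types, was at -0.03 with an interval of -0.11 to 0.04, Plin4 at 0.01 and Cidec at -0.04. The hormones of fat cells Adipoq, Retn and Lep were at 0.02, 0.01 and -0.00.

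None of the oxidation genes was called under RSL in inducible cells. Their 22 log2 fold changes ran from -0.07 (Acads) to 0.08 (Eci1) with a median of 0.01, and their 95% confidence intervals all lay between -0.16 and 0.17. In limma 0 were called, and at an unadjusted p under 0.05 Acaa2 and Eci1 were higher and Acads was lower, beside 1036 higher and 995 lower of all 16475 probe sets. The methods' one-way analysis at its nominal threshold, which takes no account of the number of genes, passed Acaa2 and Hadh upwards and Acads and Acot2 downwards. After Benjamini-Hochberg adjustment it passed 0. Cpt1a, which controls the entry of long-chain fatty acids into mitochondria, was at 0.02 (interval -0.07 to 0.10). Acadm, the dehydrogenase of medium chains, was at 0.01 (-0.09 to 0.10), and Hadha, a subunit of the trifunctional protein, at 0.01 (-0.07 to 0.08).

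In parental cells, which lack the inducible IER2, 0 of the 40 members were called in limma between RSL and DMSO, where 0.0243% of all probe sets passed upwards and 0.00607% downwards. At an unadjusted p under 0.05, 2 were higher (Pnpla2 and Acads) and 3 lower (Cebpd, Angptl4 and Cpt1a), beside 792 and 807 of all 16475 probe sets. The methods' one-way analysis passed 6 at its nominal threshold, which takes no account of the number of genes, and 0 after adjustment. Fabp4, Lpl and Lipe, called in inducible cells, had log2 fold changes of 0.03, 0.00 and 0.02 here, with intervals of -0.07 to 0.13, -0.07 to 0.07 and -0.07 to 0.10. Cebpd was at -0.13 (SE 0.05, adjusted p = 0.419) and Cpt1a at -0.12 (SE 0.04, adjusted p = 0.408), with the RSL arrays of both below all DMSO arrays.

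Groups without overlap were counted in the same way for each cell line. In inducible cells, all 3 RSL arrays lay above all 3 DMSO arrays for 6 members and below for 3, against 9.34% and 8.75% of all probe sets. In parental cells the counts were 4 and 5, against 7.12% and 6.15%. An exact permutation test of 3 arrays against 3 cannot give a p below 0.1.

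**Figure D3:**
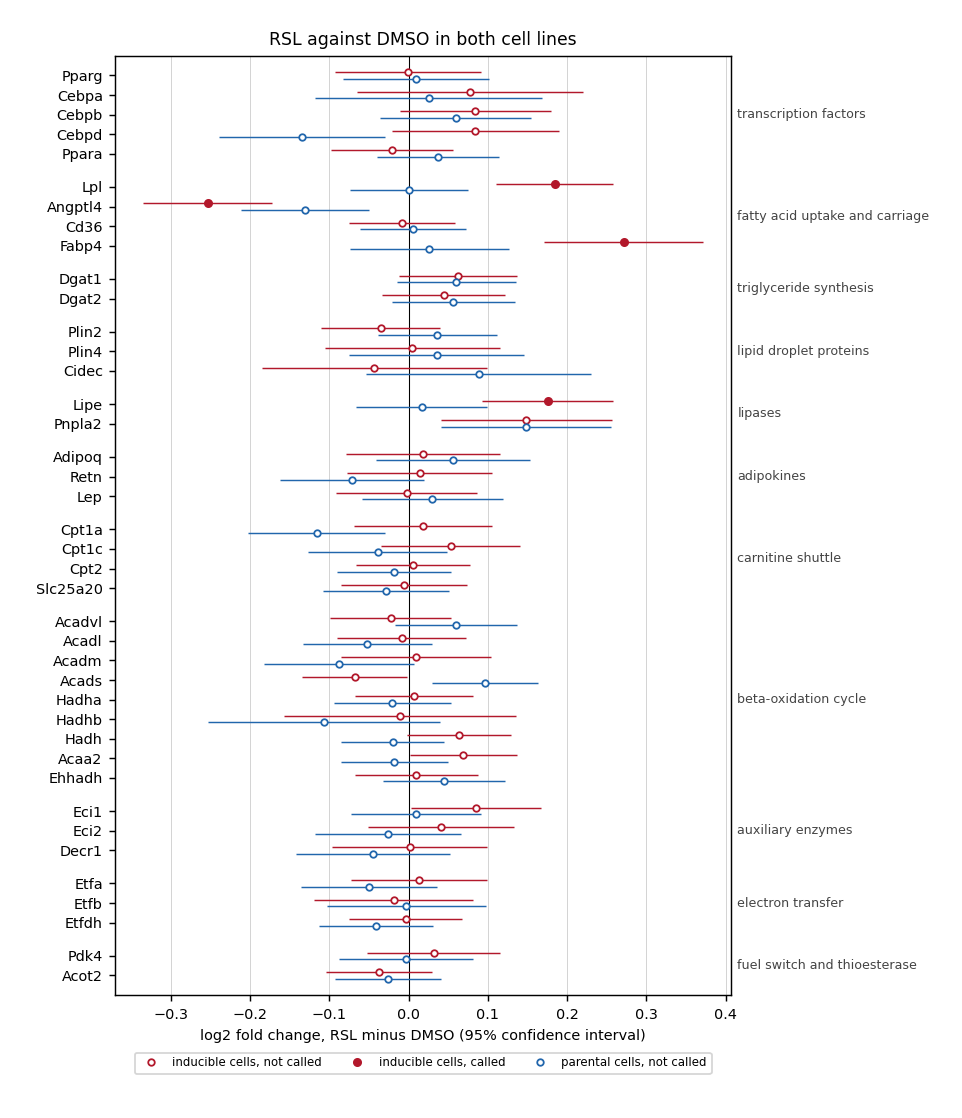
Log2 fold change of each member between RSL and DMSO (x axis, with 95% confidence intervals) in inducible and parental cells, grouped by role, with filled points for calls at an adjusted p under 0.05 in limma. The 4 filled points are Lpl, Angptl4, Fabp4 and Lipe in inducible cells, and all 22 oxidation genes have open points in both cell lines.

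Whether the RSL effect differed between the cell lines was tested in the same model, and 0 members passed, where 0.358% of all probe sets had a higher and 0.303% a lower effect in inducible cells. At an unadjusted p under 0.05, 5 members were higher (Fabp4, Lpl, Lipe, Cebpd and Cpt1a) and 2 lower (Acads and Angptl4), beside 724 higher and 770 lower of all 16475 probe sets. The difference was 0.18 for Lpl (SE 0.05, adjusted p = 0.129 from limma), 0.25 for Fabp4 (SE 0.07, adjusted p = 0.135) and 0.16 for Lipe (SE 0.06, adjusted p = 0.304), so the calls in inducible cells are not shown to be particular to them. For Angptl4 the difference was -0.12 (SE 0.05, adjusted p = 0.5).

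Acads, the dehydrogenase of short-chain fatty acids, had the smallest unadjusted p of this difference among the oxidation genes. Inducible cells had 8.69, 8.70 and 8.75 under DMSO and 8.62, 8.65 and 8.66 under RSL, and parental cells 8.67, 8.63 and 8.64 under DMSO and 8.75, 8.72 and 8.76 under RSL. All RSL arrays were below the DMSO arrays in the inducible and above them in the parental cells. The difference of the effects was -0.16 (SE 0.04, adjusted p = 0.131 from limma), which did not pass. With array weights in the model, Lpl (adjusted p = 0.0334), Fabp4 (0.00977) and Acads (0.0371) did pass, and without parental DMSO replicate 1 Fabp4 did (0.0096).

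Between the cell lines under DMSO, differences among the members were more frequent. In the inducible clone 8 members were higher and 9 lower than in parental cells, with 23 not called. In storage, 3 were higher (Cebpb, Fabp4 and Dgat2) and 2 lower (Lpl and Angptl4). In oxidation, 5 were higher (Cpt1c, Etfb, Acot2, Acadvl and Cpt2) and 7 lower (Eci1, Acaa2, Acadm, Hadh, Eci2, Etfdh and Pdk4). Of all probe sets, 15.2% passed upwards and 14.5% downwards in limma, and 20% and 22.5% of the members did so. The median log2 fold change was 0.01 over the members and -0.01 over all probe sets. The arrays of the cell lines did not overlap for 11 members upwards and 10 downwards, against 20.0% and 20.2% of all probe sets.

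Lower in the clone were the enzymes Eci1, Acaa2 and Acadm, each of which works on the fatty acid chain inside mitochondria. Eci1, an isomerase that moves the double bond of unsaturated fatty acids, read 9.16, 9.11 and 9.23 in inducible and 9.62, 9.70 and 9.67 in parental cells under DMSO. The log2 difference was -0.50 (SE 0.04, 1.41-fold lower, adjusted p = 4.96e-08 from limma), and the RSL arrays showed the same separation, at 9.21 to 9.27 against 9.64 to 9.72. Acaa2, a thiolase of the cycle, read 9.00, 8.99 and 8.97 against 9.32, 9.39 and 9.32, a difference of -0.36 (SE 0.03, 1.28-fold lower, adjusted p = 2.33e-07). Acadm read 8.41, 8.37 and 8.52 against 8.65, 8.78 and 8.70, a difference of -0.28 (SE 0.04, adjusted p = 0.000141). For none of these genes did the arrays of the cell lines overlap.

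Smaller decreases were found for Hadh, the dehydrogenase of the third step of the cycle, at -0.16 (SE 0.03, adjusted p = 0.000604 from limma), for Eci2, another isomerase, at -0.16 (SE 0.04, adjusted p = 0.0114), and for Etfdh, which hands electrons to ubiquinone, at -0.14 (SE 0.03, adjusted p = 0.00488). Pdk4 was called lower at -0.11 (adjusted p = 0.0413), but its 12 values, from 5.58 to 5.83, are all below the olfactory receptor level, and the call was lost under 8 of 14 other settings. The call of Eci2 was lost without parental DMSO replicate 2 (adjusted p = 0.0613).

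Of the 22 oxidation members, 5 were higher in the clone. Cpt1c, a brain-type relative of Cpt1a, read 7.83, 7.96 and 7.94 in inducible and 7.56, 7.63 and 7.63 in parental cells, a log2 difference of 0.30 (SE 0.04, 1.24-fold, adjusted p = 2.41e-05 from limma). Etfb, a subunit of the electron transfer flavoprotein, was higher by 0.22 (SE 0.05, adjusted p = 0.00202), whereas its partner Etfa was at -0.01 (SE 0.04, adjusted p = 0.856). Acot2, a mitochondrial thioesterase, was higher by 0.15 (SE 0.03, adjusted p = 0.00133). Acadvl, the dehydrogenase of very long chains, was higher by 0.14 (SE 0.04, adjusted p = 0.00642). Cpt2, the inner enzyme of the carnitine shuttle, was higher by 0.11 (SE 0.03, adjusted p = 0.0166), a call that was lost without inducible DMSO replicate 1 or parental DMSO replicate 3 (adjusted p up to 0.0997).

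Of the 4 acyl-CoA dehydrogenases among the members, Acadvl was called higher and Acadm lower, while Acadl, for long chains, was at -0.00 (interval -0.08 to 0.08). Acads was at 0.06 (interval -0.00 to 0.13) and not called. Of the trifunctional protein, Hadha was at 0.09 (SE 0.04, adjusted p = 0.0774) and Hadhb at 0.12 (SE 0.07, adjusted p = 0.212), neither of which passed. The remaining oxidation genes not called were Cpt1a, Slc25a20, Ehhadh, Decr1 and Etfa, and Ppara was not called either.

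**Figure D4:**
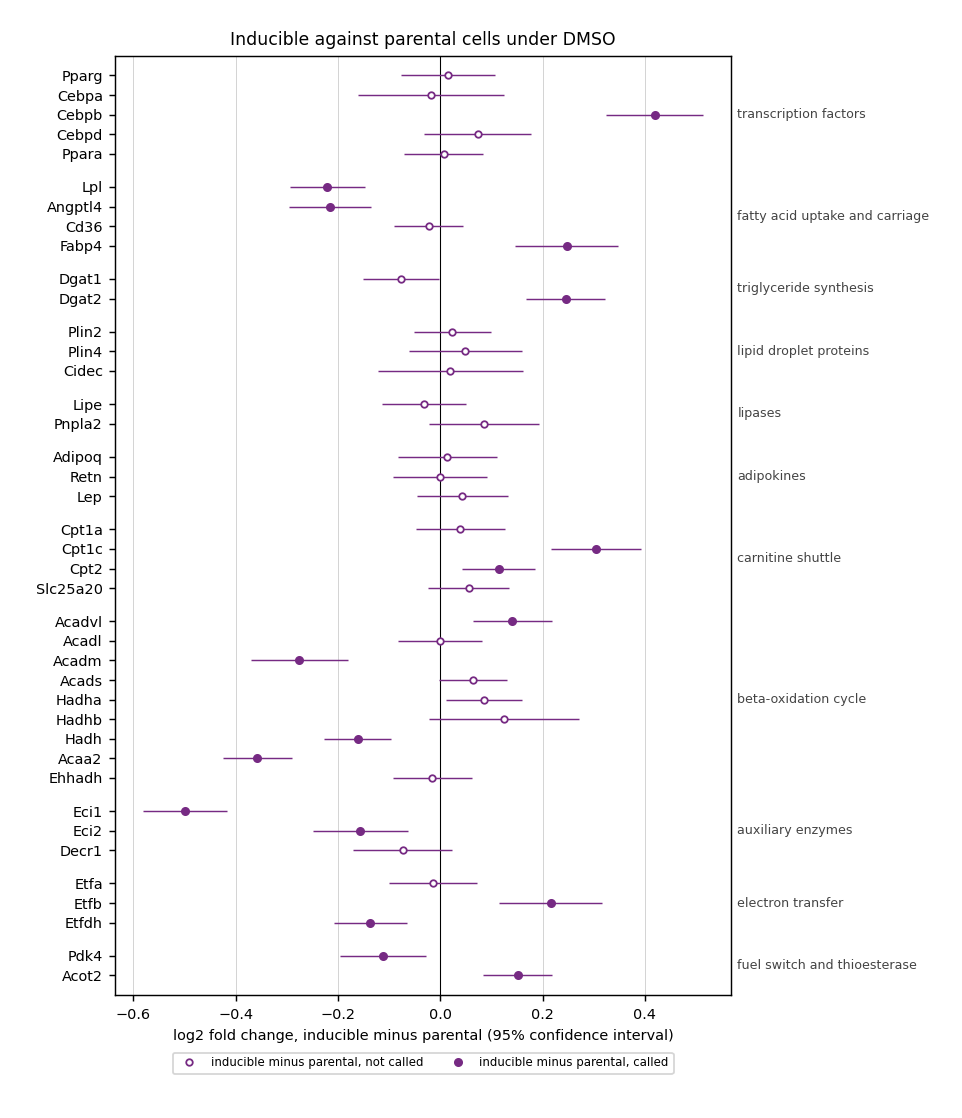
Log2 difference of each member between inducible and parental cells under DMSO (x axis, with 95% confidence intervals), grouped by role, with filled points for calls at an adjusted p under 0.05 in limma. Eci1 lies farthest to the left, at -0.50, and Cebpb farthest to the right, at 0.42.

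In storage, Cebpb, an early factor of fat cell differentiation that also serves in stress and cytokine responses, read 10.41, 10.33 and 10.28 in inducible and 9.90, 9.96 and 9.90 in parental cells under DMSO. The log2 difference was 0.42 (SE 0.04, 1.34-fold, adjusted p = 1.96e-06 from limma), without overlap, while its relative Cebpd was at 0.07 (SE 0.05, adjusted p = 0.324). Dgat2, which adds the last fatty acid of triglyceride, read 7.58, 7.60 and 7.66 against 7.41, 7.30 and 7.39, a difference of 0.25 (SE 0.04, adjusted p = 6.42e-05). Dgat1, an unrelated enzyme of the same step, was at -0.08 (SE 0.04, adjusted p = 0.12). Plin2 was at 0.02 (interval -0.05 to 0.10).

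Fabp4, Lpl and Angptl4 also differed between the cell lines before any ligand. Fabp4 was higher in the clone by 0.25 (SE 0.05, adjusted p = 0.00064 from limma), but since all 6 parental arrays were below the olfactory receptor level, this difference is taken against background. Of the macrophage markers, Cd68 was higher in the clone by 0.40, at 6.78 ± 0.07 (SD, n = 3) against 6.38 ± 0.04 (SD, n = 3), Csf1r was lower, at -0.20, and the other 6 were not called; their part in the Fabp4 difference was not tested. Lpl was lower by a log2 difference of -0.22 (SE 0.03, adjusted p = 0.000115), and Angptl4 was lower by -0.22 (SE 0.04, adjusted p = 0.000313). The RSL effect in the clone thus had the sign of the difference between the cell lines for Fabp4 and Angptl4 and the opposite sign for Lpl; both comparisons use the inducible DMSO arrays. With RSL, Lpl in the clone was at 7.76 ± 0.04 (SD, n = 3) beside 7.79 ± 0.03 (SD, n = 3) in parental DMSO cells.

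**Figure D5:**
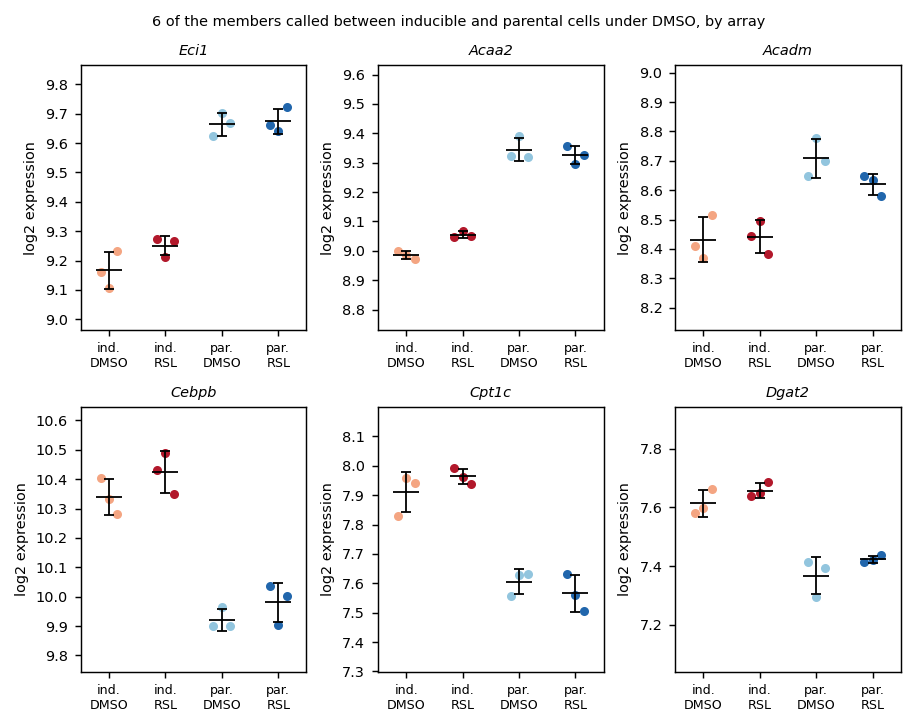
Log2 expression (y axis) of Eci1, Acaa2, Acadm, Cebpb, Cpt1c and Dgat2 on the 12 arrays, 1 point each, where black bars give the mean and SD per group of 3, for inducible (ind.) and parental (par.) cells under DMSO or RSL. All y axes span the same range of log2 units, and for each gene the 6 inducible arrays lie apart from the 6 parental arrays.

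Further genes of these pathways were taken from 3 lists of 122 genes, which were chosen with earlier results of these data known. Their shares of calls, here and in the next paragraph, are therefore no independent comparison with all probe sets. Of 44 other storage genes, 41 were measured: under RSL in inducible cells Lpin1, the phosphatidate phosphatase that makes diacylglycerol, rose by 0.22 (SE 0.04, adjusted p = 0.00245 from limma) and Acsl3, an acyl-CoA synthetase of droplets, by 0.20 (SE 0.05, adjusted p = 0.0454), and 0 fell. The Acsl3 call was lost under 9 of 15 other settings. Of 42 other oxidation genes, 36 were measured, and Acot13, a thioesterase, rose by 0.16 (SE 0.03, adjusted p = 0.0165), a call that was lost without any of 4 of the 6 inducible arrays (adjusted p up to 0.0934). Of 36 other regulators of fat cell differentiation, 33 were measured, and Egr2 alone was called, at -0.34 (SE 0.07, adjusted p = 0.00969), which was lost without any of 3 of the 6 (adjusted p up to 0.0685). Under RSL in inducible cells, 4.88% of measured storage genes and 2.78% of oxidation genes thus passed upwards, and 3.03% of regulators downwards. Of all probe sets, 1.32% passed upwards and 1.21% downwards. In parental cells 0 genes of the 3 lists were called in limma. At an unadjusted p under 0.05 there, storage had 1 higher and 2 lower of 41, oxidation 2 and 6 of 36, and regulators 1 and 3 of 33. Of all 16475 probe sets, 792 were higher and 807 lower at that threshold.

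Between the cell lines under DMSO, the other storage genes had 7 calls upwards and 8 downwards in the clone, the other oxidation genes 7 and 5, and the regulators 5 and 9. As shares of the genes measured these are 17.1% and 19.5%, 19.4% and 13.9%, and 15.2% and 27.3%, beside 15.2% and 14.5% of all probe sets. Dlk1, a membrane protein that restrains fat cell differentiation, was lower in the clone, at 9.15 ± 0.02 (SD, n = 3) against 10.53 ± 0.04 (SD, n = 3), a log2 difference of -1.37 (SE 0.04, adjusted p = 6.97e-14 from limma). Among the regulators Klf4 was higher by 0.68 and Stat5a by 0.38, while Zfp521, a repressor of fat cell fate, was lower, at -0.36. In storage, Acsl4, an acyl-CoA synthetase, was higher by 0.47 and Lipa, the lysosomal lipase, by 0.28. Agpat3, an acyltransferase of glycerolipids, and Lmf1, a maturation factor of lipoprotein lipase, were both lower at -0.38. In oxidation, Acad11 was higher by 0.48 and Acot9 by 0.23, while the peroxisomal enzyme Hsd17b4 was lower at -0.30 and Acot13 at -0.23.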

How the data were processed

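Total RNA of 12 samples of 3T3-ind-IER2 #11 or NIH 3T3 cells was hybridized to Affymetrix Mm430_2.0 arrays; for its extraction the labels name Trizol and the methods RNAPure. The authors deposited log2 expression values in 1 table. According to the methods, probes were grouped by a Custom CDF built on Entrez genes, the background was corrected by RMA and the arrays were quantile normalized, which can narrow differences of dim probe sets. That the values are log2 was read from their range, and for the step that combined the probes of a gene, no method is named in the labels or methods.

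From 16539 probe sets, 64 hybridization controls were dropped, and all other 16475 entered the tests. The platform annotation gives 15780 probe sets 1 symbol, 0 several and 695 none. The sample labels gave the groups and the replicate numbers. In limma 3.58.1 (R 4.3.3), 1 model with a mean for each of the 4 groups was fitted to all 12 arrays, with 8 residual degrees of freedom. P-values were adjusted by Benjamini-Hochberg over the probe sets tested, and all adjusted p-values of genes come from this limma model. A call is an adjusted p under 0.05. Folds are 2 to the power of the log2 difference.

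The members, the lists of other pathway genes and the markers were chosen with earlier results of these data known. All members were named by role, and of each other list at most 4 called genes per comparison, those with the smallest p. As alternatives, the replicate number was added as a block, the 40% of probe sets with the lowest mean were filtered out, variances were given an intensity trend, arrays were weighted, array medians were subtracted, quantile normalization was repeated, only the 6 arrays of a comparison were fitted, the one-way analysis of the methods was run, and each array was left out. The one-way analysis was run on the 6 arrays of a comparison, with the spread taken from those arrays alone. The methods do not say which groups entered theirs. Scripts were tested on simulated data. Promoters come from RefSeq (GRCm38.p6). The number of arrays limits the precision. The labels do not say whether the biological replicates were separate cultures, so the spread between them may be technical.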

Additional observations from a re-analysis of the deposited data

Results flagged for a closer look

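Egr2, a zinc finger factor known for an early part in fat cell differentiation and taken from the list of other regulators, had a different response to RSL in the 2 cell lines. The difference of the log2 effects, inducible minus parental, was -0.53 (SE 0.10, adjusted p = 0.0124 from limma). Its levels were 6.47 ± 0.19 (SD, n = 3) under DMSO and 6.13 ± 0.05 (SD, n = 3) under RSL in inducible cells, and 6.17 ± 0.03 (SD, n = 3) and 6.36 ± 0.07 (SD, n = 3) in parental cells. It lay above the 95th percentile of olfactory receptor probe sets on 2 of 12 arrays. The call of the difference held without each array in turn (adjusted p up to 0.0488). The change in inducible cells alone was no longer called without DMSO replicate 1, DMSO replicate 2 or RSL replicate 1, and the change in parental cells was not called (0.19, adjusted p = 0.408).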

How the results depend on the processing

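For RSL in inducible cells, 4 members were called in limma, and the methods' one-way analysis passed 8 at nominal p-values and 0 once these were adjusted, where it called 0.00607% of all probe sets. In parental cells it passed 6 at nominal p-values against 0 in limma. For the difference of the effects, array weights gave 3 against 0. These nominal counts and the count under array weights were not set against the share of all probe sets passing under the same setting. Leaving out 1 array moved the calls to between 2 and 4 in inducible cells (2 without DMSO replicate 2 and 2 without RSL replicate 1), between 0 and 0 in parental cells, between 0 and 1 for the difference (1 without parental DMSO replicate 1) and between 15 and 17 between the cell lines. With the replicate number as a block the counts were 4, 0, 0 and 17, with no member gained or lost. Acsl3, of the other pathway genes, lost its call under RSL there (adjusted p = 0.05 from limma). Deviations of same-numbered arrays correlated at 0.07, -0.01 and 0.21 in inducible and -0.10, -0.27 and 0.14 in parental cells. Between the lines they correlated at -0.30, -0.15 and -0.01 under DMSO and 0.16, -0.11 and -0.19 under RSL. Arrays of unlike number ran from -0.33 to 0.32. No pairing by number is seen in these values, but with 3 arrays in a group they cannot exclude it. Of the called genes, the filter removed Fabp4, Pdk4 and Egr2 before the fit, so their calls were not tested under it. Over the named genes, 524 values of called genes kept their call and 44 lost it, in 12 results; of those not called, 2149 stayed so and 19 passed; 0 reversed. The one-way analysis, run here on the 6 arrays of a comparison, and the limma fit of those 6 arrays were not run for the difference, since neither gives one in that form. The causes were not tested.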
